A study of Homo sapiens with 6 samples.

Results

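Collagens are the matrix proteins whose chains carry long Gly-X-Y repeats and wind round each other into a rope-like helix, and each gene of the family encodes 1 such chain. All rows of the count table whose symbol reads COL, a number, A and a number were taken, which gave 44 collagen genes of 23827 in the table. They were sorted by textbook class into 11 fibrillar chains, 6 chains of the basement membrane network (type IV), 5 type VI chains, 10 FACIT chains and 12 others. The cells were A549, 1 established line from a human lung adenocarcinoma. Both groups had 24 h of treatment, PBS (phosphate-buffered saline) in equal volume as control or 20 mM lactic acid, with 3 biological replicates each. Polyadenylated RNA was sequenced, and the comparison asks which collagen transcripts differed after lactic acid. Lactic acid carries both lactate and protons, and their parts cannot be told apart in these samples.

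Fibrillar collagens form the cable-like fibrils of connective tissue, type IV collagens the sheet under epithelia, and type VI collagens the beaded filaments near that sheet. FACIT collagens do not form fibrils by themselves but sit on the surface of fibrils, and the remaining types include anchoring fibrils, membrane-spanning chains and short-chain networks. Chains are folded in the endoplasmic reticulum, where proline and lysine residues are hydroxylated by enzymes that need oxygen, iron and alpha-ketoglutarate. Lung epithelium makes chiefly basement membrane collagens, while fibroblasts make most of the fibrillar ones.

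The libraries held 33492831 to 42938870 counts in genes. A549 markers were high, with KRT8 at 1874 CPM in PBS and ALDH1A1 at 5113 CPM (CPM, read counts scaled to library size with TMM factors, mean of 3). CDKN2A and CDKN2B, which A549 has lost, had 0 to 3 counts in any library. Of 9 epithelial and A549 markers 4 rose and 4 fell, and KRT8 was not called. In PBS and lactic acid, the risers KRT19, AKR1B10, AKR1C1 and NQO1 had 62.5 and 71.0, 457 and 560, 129 and 234, and 936 and 1231 CPM. Among those that fell, EPCAM had 3.29 and 1.62 CPM and CDH1 20.1 and 11.8. KRT18 had 1054 and 916 CPM and ALDH1A1 5113 and 4091. Endothelial markers summed to at most 0.240 CPM with CDH5 at 0 throughout, and leukocyte markers to 44.1 to 48.0 CPM in PBS and 33.8 to 38.5 after lactic acid, with CD68 at 40.3 and 30.9 CPM and PTPRC at 0 to 2 counts. Of 15474 genes tested with edgeR's quasi-likelihood test, 18.7% rose and 16.7% fell at a Benjamini-Hochberg adjusted p under 0.05, and the median log2 fold change was 0.0024. Of the 44 collagen chains 30 had enough counts to be tested.

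Of the 30 tested chains 13 fell, 3 rose and 14 did not pass the threshold, and 35.4% of all tested genes passed it in either direction. The 13 include COL8A2 and COL9A2, which passed the filter on low counts only through the PBS libraries, where they are high, so 11 falls remain apart from them. The median log2 fold change of the 30 was −0.23, and 20 were below 0. All lactic acid libraries lay below all PBS libraries for 16 of the 30 chains, against 23.1% of all tested genes, and above them for 4, against 24.4%. Together 20 chains had separated groups, against 47.5% of all tested genes. The median and these counts include COL8A2 and COL9A2, both of them lower. COL26A1, with overlapping groups, reached the filter in 3 PBS libraries and 1 lactic acid library and is in the median and the count below 0. Summed over all 44 chains, collagens took 4647, 4954 and 4877 CPM in the PBS libraries and 4151, 4369 and 4214 CPM in the lactic acid libraries, a difference of −12.0%. COL6A2 had the largest fall among chains above 5 CPM. COL1A1, COL4A1, COL4A2, COL4A6, COL5A1, COL5A2, COL6A1 and COL18A1 fell by smaller steps. COL12A1, COL11A1 and COL4A3 rose. Markers of fibroblasts, the cells that make most collagen in tissue, moved in the same direction. The 8 listed markers summed to 96.0 to 100.2 CPM in PBS and 77.8 to 85.7 CPM after lactic acid. Of 5 tested members 4 fell (LUM, DCN, THY1 and FBLN1), where 16.7% of all tested genes fell. PDGFRA, the other tested member, was not called (log2 fold change −0.26, adjusted p = 0.596). POSTN was at 0 in every library, PDGFRB had 0 to 11 counts and MFAP5 0 to 4, and the part of this list in the collagen values was not tested. In bulk RNA, fewer cells making a transcript and less transcript per cell cannot be told apart.

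**Figure D1:**
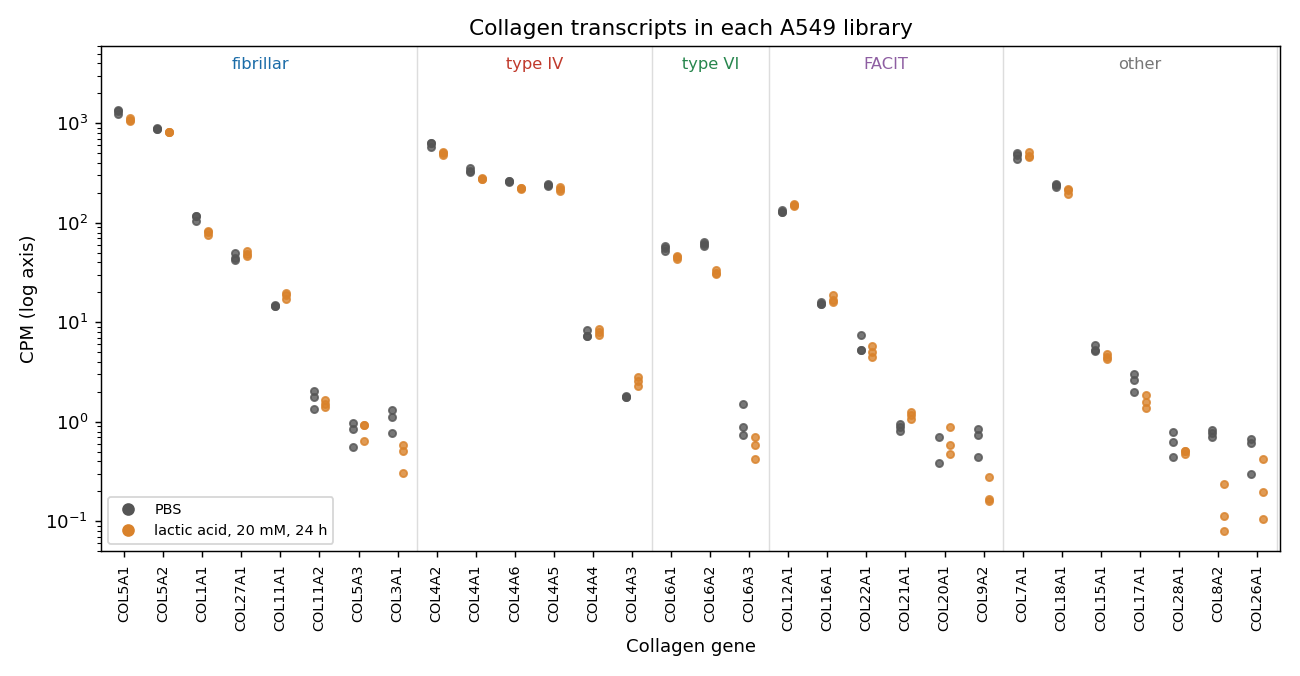
Level of the 30 tested collagen chains in each library (CPM, log axis), ordered by mean within each type, with PBS libraries in grey and lactic acid libraries in orange. A value of 0 (COL20A1 in the first PBS library) is not drawn. CPM are not divided by gene length, so heights are to be compared within a gene; COL6A2 shows separated groups.

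Upstream sequences, where transcription factors bind, are shown for the type IV pairs, because those genes lie head to head and their changes can be read pair by pair, and for COL6A2, because it fell most among the well-counted chains. They come from the RefSeq promoter table (GRCh38.p14), which held an entry for 32 of the 44 chains, and run 5′ to 3′ on the plus strand. Capitals mark matches to 3 motifs, or to their complements, since both strands were searched. The GC box was searched as GGGCGG. The second motif was CCAAT, known as a box by that name. The TATA box was searched as TATAAA.
COL4A1 to COL4A2, chr13:110307158-110307283: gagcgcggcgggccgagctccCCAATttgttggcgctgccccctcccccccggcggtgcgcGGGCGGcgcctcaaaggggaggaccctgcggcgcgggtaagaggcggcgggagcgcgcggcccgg
COL4A3, chr2:227164374-227164623: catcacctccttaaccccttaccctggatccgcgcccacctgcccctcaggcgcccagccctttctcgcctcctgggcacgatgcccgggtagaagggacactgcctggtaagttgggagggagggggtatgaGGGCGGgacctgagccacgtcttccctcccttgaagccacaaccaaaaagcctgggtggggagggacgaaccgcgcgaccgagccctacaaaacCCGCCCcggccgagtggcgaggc
COL4A5, chrX:108439588-108439837: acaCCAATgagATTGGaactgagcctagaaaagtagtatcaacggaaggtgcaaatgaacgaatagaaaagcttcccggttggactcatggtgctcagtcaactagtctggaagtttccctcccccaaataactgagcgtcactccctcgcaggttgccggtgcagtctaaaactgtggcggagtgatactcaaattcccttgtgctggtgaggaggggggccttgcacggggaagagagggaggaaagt
COL6A2, chr21:46097862-46098111: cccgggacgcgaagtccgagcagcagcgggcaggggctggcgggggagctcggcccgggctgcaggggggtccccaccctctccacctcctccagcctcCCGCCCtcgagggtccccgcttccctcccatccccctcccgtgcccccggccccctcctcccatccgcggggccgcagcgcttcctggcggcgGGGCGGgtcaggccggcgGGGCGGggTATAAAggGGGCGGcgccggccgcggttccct
The RefSeq starts of COL4A1 and COL4A2 lie 127 bp apart, and the 126 bases between them are shown. GENCODE, used for the gene coordinates, also holds transcripts with other starts, so its spans of these genes overlap by 1422 bp and the window lies inside the COL4A2 span and partly inside that of COL4A1. The COL4A3 and COL6A2 windows likewise run past the GENCODE start of their gene. The RefSeq starts of COL4A3 and COL4A4 lie 419 bp apart, and COL4A5 lies 380 or 1416 bp from the starts of COL4A6. The shared stretch of COL4A1 and COL4A2 held 1 GC box and 1 CCAAT box, motifs found in 34.6% and 21.1% of 35097 upstream windows of that length. Over 250 bases COL4A3 held 2 GC boxes, COL4A5 held 2 CCAAT boxes, and COL6A2 held 4 GC boxes and 1 TATA box. Windows of 250 bases carried a GC box in 42.6%, a CCAAT box in 32.0% and a TATA box in 10.7% of cases. No matches overlapped each other in these windows, and a match is only a match of letters.

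Type VI chains fell in 2 of 3 tested cases, where 16.7% of all tested genes fell. Type VI collagen is assembled from an alpha 1, an alpha 2 and a longer alpha 3 chain, and it links the basement membrane to the matrix around it. COL6A2, the alpha 2 chain (chr21:46098097-46132849, plus strand), stood at 59.2, 63.7 and 61.7 CPM in the PBS libraries and at 30.3, 33.7 and 31.5 CPM after lactic acid. Every lactic acid library lay well below every PBS library. The log2 fold change was −0.95 (SE 0.048, adjusted p = 8.24e-08), and 230 of 15474 tested genes had a lower one. COL6A1, the alpha 1 chain (chr21:45981737-46005050, plus strand), went from 52.6, 57.9 and 56.3 CPM to 43.3, 46.8 and 45.8 CPM. Its groups did not overlap either, and the log2 fold change was −0.30 (SE 0.046, adjusted p = 0.000414). The ratio of COL6A2 to COL6A1 per length, from the deposited FPKM, was 1.39, 1.36 and 1.36 in PBS and 0.861, 0.893 and 0.852 after lactic acid. The transcript of the alpha 2 chain passed from the higher to the lower of the pair in all 3 lactic acid libraries.

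COL6A3, the long alpha 3 chain, was scarce, at 51, 25 and 35 counts in PBS and 25, 18 and 22 counts after lactic acid. In CPM the groups did not overlap, but the log2 fold change of −0.87 did not pass the threshold (adjusted p = 0.0757), and it was −0.52 without the first PBS library. Per length its level in PBS was 0.0904 ± 0.0347 FPKM (SD, n = 3) against 12.5 ± 0.710 for COL6A1 and 17.0 ± 0.741 for COL6A2. COL6A5 had no count in any library and COL6A6 had 2 counts in 1 lactic acid library. By edgeR 0 of 3 tested type VI chains rose, also at an unadjusted p under 0.05 and with DESeq2 and limma-voom, and 2 fell. Of all tested genes 18.7% rose and 16.7% fell by edgeR. The summed type VI level was 113.3, 122.4 and 118.9 CPM in PBS and 74.3, 80.9 and 78.0 CPM after lactic acid, a difference of −34.2%.

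**Figure D2:**
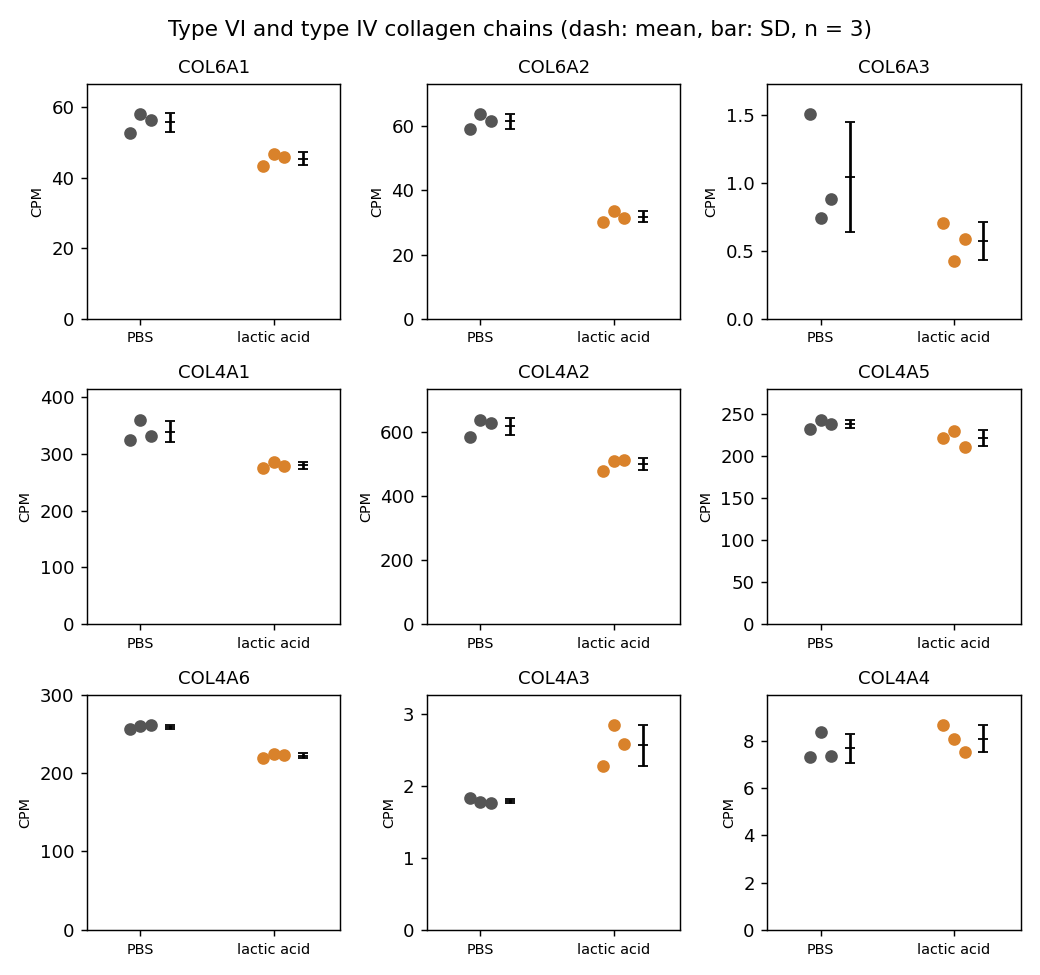
CPM of 3 type VI and 6 type IV chains in each library, with the mean as a dash and the SD as a bar (n = 3). COL6A2 drops from about 61.5 to 31.8 CPM, COL4A1, COL4A2 and COL4A6 by less, and COL4A3 is higher after lactic acid.

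In the type IV network, 3 of 6 chains fell and 1 rose, where 16.7% of all tested genes fell and 18.7% rose. These chains build 3 kinds of network: alpha 1 with alpha 2 in nearly all basement membranes, alpha 3, 4 and 5 in kidney and lung alveoli among others, and alpha 5 with alpha 6 in skin and smooth muscle. COL4A2 (chr13:110305812-110513209, plus strand) held 585, 638 and 628 CPM in PBS and 477, 508 and 512 CPM after lactic acid. The log2 fold change was −0.31 (SE 0.039, adjusted p = 0.000111). COL4A1, its head-to-head neighbour (chr13:110148963-110307233, minus strand), held 324, 359 and 332 CPM in PBS and 274, 286 and 277 CPM after lactic acid. It differed by −0.28 on the log2 scale (SE 0.041, adjusted p = 0.000285), and neither gene's groups overlapped. The strand setting of the counting is not known here, so reads from the overlap of their GENCODE spans could be shared. The ratio of COL4A2 to COL4A1 per length was 1.88 ± 0.0592 in PBS and 1.84 ± 0.0552 after lactic acid (SD, n = 3), so it moved by less than its spread.

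COL4A6 (chrX:108155607-108439497, minus strand) fell from 256, 261 and 261 CPM to 219, 225 and 223 CPM. Its log2 fold change was −0.22 (SE 0.031, adjusted p = 0.000208), with replicates within a few CPM of each other in both groups. COL4A5 (chrX:108439844-108697545, plus strand), the other member of this pair, stood at 233, 243 and 238 CPM in PBS and 221, 230 and 211 CPM after lactic acid. The groups were separated but close, and the log2 fold change of −0.11 lay just outside the threshold (SE 0.039, adjusted p = 0.0509). In 12 of 17 alternatives it passed, with adjusted p from 0.0115 to 0.0454, among them DESeq2, limma-voom and library totals alone, and also the fits without the first PBS or the second lactic acid library (0.0454 and 0.0245). The fits that left out one of the other 4 libraries did not pass (adjusted p 0.0965 to 0.166).

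COL4A3 (chr2:227164565-227314792, plus strand), mutated with its neighbour in Alport syndrome, rose from a low level. It had 62, 60 and 70 counts in PBS and 81, 121 and 97 counts after lactic acid, or 1.83, 1.78 and 1.76 against 2.27, 2.85 and 2.59 CPM. The log2 fold change was 0.52 (SE 0.178, adjusted p = 0.0398). Dropping a PBS library ended the call in each of 3 cases (adjusted p 0.0721, 0.0858 and 0.0886), as did dropping lactic acid library 2 or 3 (0.141 and 0.0967). DESeq2 (0.12), no filter (0.051) and the fit with the replicate number as a block (0.0632) also lost it. COL4A4 (chr2:227002711-227164453, minus strand), which faces it, had 7.31, 8.38 and 7.33 CPM in PBS and 8.65, 8.06 and 7.52 CPM after lactic acid. These values overlap, and its log2 fold change was 0.075 (SE 0.104, adjusted p = 0.621). Of the 3 head-to-head pairs, both members fell in 1, 1 member fell in the second, and 1 member rose in the other. Per length, the ratio of COL4A5 to COL4A6 was 0.953 to 0.981 in PBS and 0.99 to 1.08 after lactic acid. That of COL4A3 to COL4A4, both under 1 FPKM, was 0.262 to 0.306 in PBS and 0.322 to 0.58 after lactic acid. Unlike the ratio of COL4A2 to COL4A1, these ranges did not overlap between groups, and the differences were not tested.

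Fibrillar chains made up the largest share of the summed collagen FPKM. Of 8 tested 4 fell and 1 rose, where 16.7% of all tested genes fell and 18.7% rose. Type V collagen starts fibrils and sets their width, and its alpha 1 chain COL5A1 (chr9:134641774-134844843, plus strand) had the highest FPKM of all collagen chains. It held 1241, 1356 and 1320 CPM in PBS and 1067, 1132 and 1069 CPM after lactic acid. All lactic acid libraries were lower, with a log2 fold change of −0.26 (SE 0.036, adjusted p = 0.000163). COL5A2, the alpha 2 chain (chr2:189031896-189225312, minus strand), held 886, 897 and 882 CPM in PBS and 813, 825 and 826 CPM after lactic acid. The groups did not overlap, with a log2 fold change of −0.11 (SE 0.025, adjusted p = 0.00367). On the log2(FPKM + 1) scale it was −0.25, and the ratio of counts to FPKM for this gene strayed by up to 8.2% between libraries. COL5A3, a tissue-restricted type V chain, had 19 to 40 counts per library and overlapping groups (log2 fold change 0.067, adjusted p = 0.895).

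COL1A1, the alpha 1 chain of type I collagen (chr17:50183289-50201632, minus strand), fell from 103.6, 116.9 and 116.5 CPM to 75.3, 83.0 and 80.8 CPM. The groups lay apart, with a log2 fold change of −0.49 (SE 0.0535, adjusted p = 2.92e-05). Its usual partner COL1A2 was almost absent, with 0, 0 and 5 counts in PBS and 0, 10 and 0 after lactic acid, too few for a test. COL3A1, which shares fibrils with type I collagen in soft tissue, had 38, 44 and 31 counts in PBS and 18, 13 and 22 counts after lactic acid. Its log2 fold change was −1.20 (SE 0.345, adjusted p = 0.0186), a call that ended when PBS library 1 or 2 (adjusted p 0.0522 and 0.0783) or lactic acid library 2 (0.0741) was dropped.

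The fibrillar chain that rose was COL11A1 (chr1:102876467-103108872, minus strand), a cartilage collagen chain that nucleates fibrils. It had 14.6, 15.1 and 14.5 CPM in PBS and 19.7, 17.2 and 18.8 CPM after lactic acid. Every lactic acid library was higher, with a log2 fold change of 0.33 (SE 0.075, adjusted p = 0.00493). COL11A2, another chain of type XI, had 46, 68 and 70 counts in PBS and 54, 70 and 53 after lactic acid, with overlapping groups (log2 fold change −0.17, adjusted p = 0.596). COL2A1, the main cartilage collagen, was listed with 18 counts in the third PBS library and 0 in the other 5. COL27A1, a long fibrillar chain of cartilage, stood at 44.1, 42.1 and 50.3 CPM in PBS and 48.7, 51.9 and 46.2 CPM after lactic acid. Its groups overlapped and the log2 fold change was 0.10 (adjusted p = 0.245), but without the third PBS library, the highest of its group, it was 0.18 with an adjusted p of 0.0356. With the second PBS or the second lactic acid library left out it was 0.045 and 0.053 (adjusted p 0.66 and 0.62). COL24A1 had at most 6 counts in a library. Of 8 tested fibrillar chains 4 fell and 1 rose, beside 16.7% and 18.7% of all tested genes. The 11 fibrillar chains summed to 2371 ± 70.7 CPM in PBS and 2061 ± 45.9 after lactic acid (SD, n = 3).

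**Figure D3:**
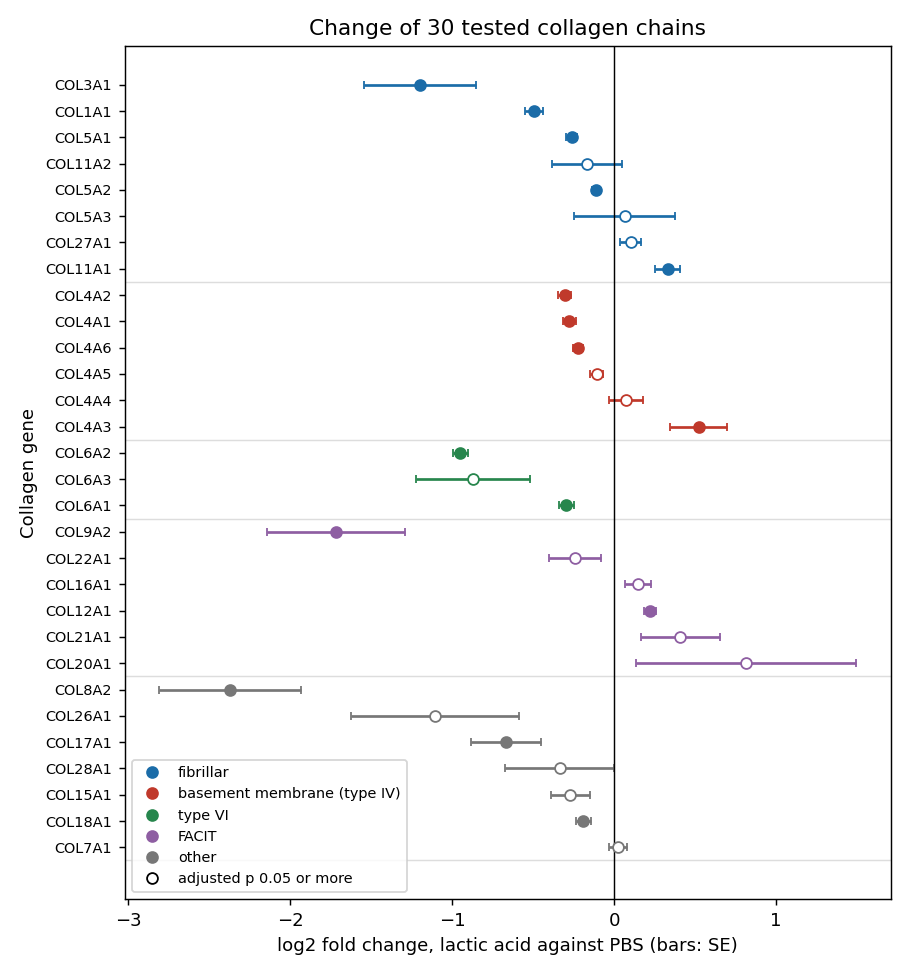
Log2 fold change of the 30 tested collagen chains, lactic acid against PBS, with SE bars, coloured by type. Filled points passed the adjusted p of 0.05; 13 of them lie left of 0 and 3 right of it, and the low-count chains COL8A2 and COL9A2 have the widest distance from 0.

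Of 6 tested FACIT chains 1 rose and 1 fell, where 18.7% of all tested genes rose and 16.7% fell. The fall was that of COL9A2, which passed the filter on low counts through PBS. COL12A1 (chr6:75084326-75206051, minus strand), a long chain that decorates type I fibrils, held most of the counts of this class. Its values were 134.8, 127.7 and 127.3 CPM in PBS and 155.2, 146.9 and 152.3 CPM after lactic acid. The groups did not overlap and the log2 fold change was 0.22 (SE 0.039, adjusted p = 0.00101). COL16A1, found near the skin and cartilage matrix, had 15.2, 15.9 and 15.3 CPM in PBS and 15.8, 18.8 and 16.8 CPM after lactic acid, with a log2 fold change of 0.15 (adjusted p = 0.171). COL22A1, a chain of tissue junctions, had 180, 252 and 211 counts in PBS and 207, 213 and 168 after lactic acid, without a call (log2 fold change −0.24, adjusted p = 0.27). COL21A1, first described from blood vessel walls, had 30, 32 and 32 counts in PBS and 45, 50 and 40 after lactic acid. Its groups did not overlap in CPM, yet the log2 fold change of 0.41 missed the threshold (adjusted p = 0.224).

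COL9A2, a type IX chain of cartilage, had 15, 25 and 34 counts in PBS and 6, 12 and 6 after lactic acid. Its log2 fold change of −1.71 is only a description, because it passed the filter on low counts through the PBS libraries and reached it in 1 lactic acid library. Its partners COL9A1, with 0 counts throughout, and COL9A3, with 0 to 6, were not testable. COL20A1 had 0, 13 and 28 counts in PBS and 21, 38 and 18 after lactic acid, a spread too wide for a call (adjusted p = 0.388). COL14A1 had 2 counts in 1 library and COL19A1 none. The FACIT sum was 156.6, 153.2 and 150.5 CPM in PBS and 178.9, 173.1 and 175.5 CPM after lactic acid, higher by 14.6%, most of it from COL12A1.

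Among the other collagens 3 of 7 tested chains fell and 0 rose by edgeR, where 16.7% of all tested genes fell and 18.7% rose. The 3 include COL8A2, which passed the filter on low counts only through PBS. In this class 0 rose also at an unadjusted p under 0.05 and with DESeq2 and limma-voom. COL7A1 (chr3:48564073-48595267, minus strand) forms the anchoring fibrils under stratified epithelia. It held 438, 478 and 502 CPM in PBS and 467, 520 and 456 CPM after lactic acid. These ranges overlap widely, with a log2 fold change of 0.025 (SE 0.055, adjusted p = 0.762). COL18A1 (chr21:45405137-45513720, plus strand), a basement membrane proteoglycan collagen and the source of endostatin, went from 229, 247 and 241 CPM to 194, 214 and 220 CPM. The log2 fold change was −0.19 (SE 0.049, adjusted p = 0.0101). The gene overlaps SLC19A1 on the opposite strand, which was counted at 9.38% of its counts and itself fell by 0.28 on the log2 scale (adjusted p = 0.00565). The strand setting is not given in the sources used here, so reads of the pair could be shared. COL15A1, the related chain of type XV, had 5.16, 5.91 and 5.32 CPM in PBS and 4.80, 4.47 and 4.32 CPM after lactic acid. Its groups were apart but the log2 fold change of −0.27 was not called (adjusted p = 0.106).

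COL17A1, a membrane-spanning chain of hemidesmosomes, had 67, 102 and 104 counts in PBS and 56, 59 and 69 after lactic acid. Its log2 fold change was −0.67 (SE 0.216, adjusted p = 0.0316). Dropping PBS library 2 or 3 (adjusted p 0.118 and 0.0795) or lactic acid library 1 or 2 (0.078 and 0.104) ended that call, and so did DESeq2 (0.0578). COL8A2, a short-chain network collagen known from the cornea, had 26, 28 and 28 counts in PBS and 4, 10 and 3 after lactic acid. Its log2 fold change was −2.37, and −2.96 without the second lactic acid library. No lactic acid library reached the filter on low counts, and a gene that passes only through PBS has to differ, so this too is only a description. COL26A1 had 21, 10 and 27 counts against 7, 18 and 4 (log2 fold change −1.11, adjusted p = 0.123, −1.81 with 0.0439 without the second lactic acid library, and 0.0798 to 0.32 without any other). Like COL9A2, COL26A1 reached the filter on low counts in 3 PBS libraries and 1 lactic acid library, so its values are only a description. COL28A1 had 15 to 27 counts per library without a call (adjusted p = 0.48).

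The 14 chains that were not tested lay at the edge of detection. COL6A5, COL8A1, COL9A1, COL19A1 and COL25A1 had 0 counts in all 6 libraries. If counts were independent fragments, a count of 0 would allow up to 3 counts, equal to 0.0705 to 0.0891 CPM per library, for counting error only. Low counts may not be independent fragments here, so the limit could be higher. COL10A1, a hypertrophic cartilage chain, had 4, 0 and 0 counts in PBS and 2, 9 and 0 after lactic acid. COL13A1, a membrane-spanning chain, had 6, 8 and 0 counts in PBS and 11, 6 and 7 after lactic acid. COL23A1 had 3 counts in the second PBS library and none elsewhere. Differences among these chains were not detectable at this depth.

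Per length the order of chains was much the same in both groups. In the deposited FPKM the PBS libraries placed COL5A1 first (147 ± 7.85), then COL5A2 (128 ± 6.40), COL4A2 (91.4 ± 5.29) and COL7A1 (53.3 ± 4.34; SD, n = 3 for each). COL4A1 (48.6 ± 2.90) overlapped COL7A1 above it and COL18A1 (44.0 ± 4.09) below it, and COL4A6 (36.8 ± 0.884) overlapped COL4A5 (35.6 ± 1.06). COL1A1 came next at 20.9 ± 1.22 FPKM, followed by COL6A2, COL6A1 and COL12A1 (10.9 ± 0.245). Between libraries the ratio of counts to FPKM strayed by up to 9.38% for COL18A1, 8.2% for COL5A2 and 5.53% for COL1A1. Below these, COL27A1, COL16A1, COL11A1 and COL22A1 had means between 5.65 and 1.17 FPKM, and every other tested chain was under 1 FPKM. After lactic acid COL6A2 stood at 8.59 ± 0.482 FPKM and went from rank 10 to rank 12, behind COL12A1 (12.5 ± 0.282) and COL6A1 (9.88 ± 0.379). Fibrillar chains made up 45.2% to 47.0% of the summed collagen FPKM in PBS and 45.3% to 45.8% after lactic acid. Type IV chains made up 31.7% to 33.1% and 31.6% to 31.9%, and type VI chains 4.42% to 4.58% and 3.28% to 3.41%.

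**Figure D4:**
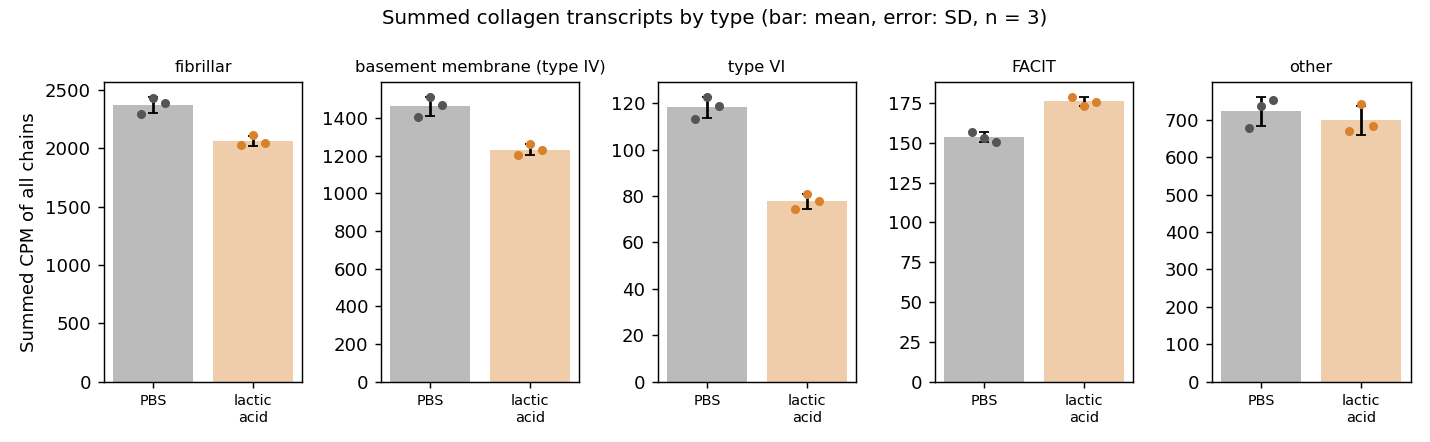
Summed CPM of all chains of a collagen type in each library, with the mean as a bar from 0 and the SD as an error bar (n = 3). Fibrillar, type IV and type VI sums are lower in all 3 lactic acid libraries, the FACIT sum is higher, and the sum of the other chains overlaps (677.3 to 752.7 against 669.2 to 742.0 CPM).

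Of 17 tested enzymes and chaperones that fold collagen 4 rose and 4 fell. These counts, and those of the 3 lists that follow, stand beside 18.7% of all tested genes that rose and 16.7% that fell, and nothing is read from them about the lists. P4HA1, a catalytic chain of prolyl 4-hydroxylase, stood at 113 ± 8.88 CPM in PBS and rose 1.85-fold to 209 ± 11.5 CPM (SD, n = 3, adjusted p = 6.1e-07). The alternative catalytic chains P4HA2 and P4HA3, chosen after their values were seen, did not rise. P4HA2 was at 147 CPM in PBS and 144 after lactic acid without a call (adjusted p = 0.6). P4HA3 fell from 123 to 105 CPM (log2 fold change −0.24, adjusted p = 0.00139). PLOD2, a lysyl hydroxylase, rose 1.28-fold between 876 ± 43.2 CPM in PBS and 1123 ± 23.4 CPM (adjusted p = 1.25e-05), and P4HB, protein disulfide isomerase and partner of P4HA1, 1.13-fold (adjusted p = 0.000883). P3H3, of the prolyl 3-hydroxylase family, fell from 56.7 ± 2.19 CPM to 36.3 ± 1.41 CPM (−0.64 on the log2 scale, adjusted p = 9.47e-07). FKBP10, a collagen chaperone with peptidyl-prolyl isomerase activity, fell from 255 ± 7.67 to 184 ± 3.72 CPM (−0.48, adjusted p = 1.68e-06), and P3H2 of the same family as P3H3 also fell (−0.27, adjusted p = 0.00131). SERPINH1, the collagen chaperone HSP47 and chosen after its value was seen, was at 213 ± 6.59 and 201 ± 5.06 CPM without a call (adjusted p = 0.122). The P4HB call was lost on the log2(FPKM + 1) scale (adjusted p = 0.179).

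Of 14 tested genes for secretion, propeptide removal and cross-linking 3 rose and 5 fell. CREB3L1, a transcription factor of the endoplasmic reticulum that activates collagen genes in mouse bone, had the largest change of this list. Its level was 8.09 ± 1.09 CPM in PBS and 3.67 ± 0.474 after lactic acid, a log2 fold change of −1.14 (adjusted p = 7.64e-05). The cross-linking enzyme LOXL4 fell (−0.54, adjusted p = 0.000775), while LOX and LOXL2 of the same family rose 1.19-fold and 1.10-fold (adjusted p = 0.00153 and 0.00141). MIA2, a receptor that loads large cargo such as collagen at exit sites, rose 1.17-fold (adjusted p = 0.00103). SEC23A, a coat protein of those sites, fell slightly (−0.13 on the log2 scale, adjusted p = 0.0184), but not when PBS library 1 or lactic acid library 2 or 3 was dropped (adjusted p 0.0565 to 0.0593).

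Among collagen receptors 3 of 8 tested genes rose and 2 fell. ITGA10, the alpha 10 integrin chain that binds cartilage collagen, rose 2.60-fold from 3.00 ± 0.269 to 7.78 ± 0.972 CPM (adjusted p = 1.42e-05). ITGA2, the alpha 2 chain of an epithelial collagen receptor, rose 1.27-fold from 108 ± 2.70 to 137 ± 4.84 CPM, and the receptor kinase DDR1 1.12-fold (adjusted p = 4.64e-05 and 0.00869). The DDR1 call was lost on the log2(FPKM + 1) scale (adjusted p = 0.109). MRC2, which takes up collagen fragments, fell (log2 fold change −0.19, adjusted p = 0.0103). ITGB1, the shared beta chain, changed by −0.058 with an adjusted p of 0.0455, a call lost without any library except the second PBS library (adjusted p 0.055 to 0.129). Of 6 tested proteases that cut collagen 1 passed the threshold, the interstitial collagenase MMP1, chosen after its value was seen. It had 6, 6 and 11 counts in PBS and 22, 41 and 19 after lactic acid. It passed the filter on low counts only through the lactic acid libraries, where it is high, so its values are only a description. MMP2, a gelatinase also chosen after its value was seen, did not pass (89.9 ± 5.37 against 90.4 ± 1.75 CPM, adjusted p = 0.905).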

How the data were processed

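The data are RNA-seq of 6 A549 libraries, 3 with PBS and 3 with lactic acid, made from poly(A) RNA as paired-end reads of 150 bp. The authors deposited whole-number counts per gene and FPKM per gene for these libraries. Per the submitters' processing notes, HISAT2, StringTie and DESeq2 are tools of the study and GRCh38 its build, with neither versions nor steps stated. Annotation, strand setting and multi-mapping rules: not given in the sources used here. In the deposited counts the value 2 occurred 3239 times and the value 1 only 746 times, so a low count may not equal a number of independent fragments. The labels call the control columns WT and the tables NS; columns were matched through the library names.

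Counts were tested with edgeR 4.0.16 in R 4.3.3 (TMM, filterByExpr with a minimum count of 10 and total of 15, quasi-likelihood F test, two-sided, group only), with Benjamini-Hochberg adjustment over 15474 genes. The test was checked on simulated data. CPM use TMM library sizes, an SE is the log2 fold change divided by the square root of F, and levels are compared between genes only as deposited FPKM. Coordinates are from GENCODE release 29 (GRCh38). No 2 libraries of a group matched within sampling noise (chi-square per degree of freedom 6.27 to 9.11). The labels say biological replicates without naming separate cultures, so p-values measure the spread between these samples.

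Members and gene lists were chosen with earlier results of these data known. All chains are accounted for: called chains and those of at least 1 CPM with values per library, others by counts. In the other pathway lists up to 3 called genes per direction were named, those of lowest p among genes averaging 1 CPM or more. Alternatives were RLE factors, library totals, DESeq2 1.42.0, limma 3.58.1 (voom), no filter, 50 counts in 3 libraries, each library left out, the replicate block, log2(FPKM + 1) and log2(FPKM + 0.1), no unnamed loci and another grouping.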

Additional observations from a re-analysis of the deposited data

How the results depend on the processing

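Leaving aside COL8A2 and COL9A2, which passed the filter on low counts only through PBS, 9 of 14 called chains kept their call and direction in all 17 alternatives: COL1A1, COL4A1, COL4A2, COL4A6, COL5A1, COL5A2, COL6A1, COL6A2 and COL12A1. The cause of the other changes was not tested. With each library left out, 2 to 3 chains rose and 11 to 13 fell; fibrillar rises ran from 1 to 2, type IV rises from 0 to 1, and falls in the pathway lists from 7 to 11. Type IV rises were 0 with DESeq2, with no filter and with the replicate block, and 1 at an unadjusted p under 0.05 in each. Type IV rises were 0 in all 3 FPKM fits by limma, since the FPKM filter left out COL4A3 in 2 of them and the fit without that filter gave an adjusted p of 0.148. FACIT falls were 0 with 50 counts in 3 libraries and with the FPKM filter on both log2(FPKM + 1) and log2(FPKM + 0.1), since COL9A2 was not tested there. Falls of the other chains were 1 in the 3 FPKM fits. On log2(FPKM + 1) with no filter, collagen rises were 1 and fibrillar rises 0 (1 at an unadjusted p under 0.05), and COL11A1 and COL18A1 lost their calls (adjusted p 0.0813 and 0.0649). Rises over all genes were 1803, 1798 and 1618 on log2(FPKM + 1) and log2(FPKM + 0.1) with the filter and log2(FPKM + 1) without.

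Counting COL7A1, COL15A1 and COL18A1 with the basement membrane gave 4 falls there and 2 among the others. With the replicate number as a block 2 chains rose and 14 fell, COL4A3 (adjusted p = 0.0632) lost its call and COL4A5 (0.0375) gained one. Deviations of same-numbered libraries correlated at 0.0276, −0.0261 and 0.0583, so the numbers were not taken to pair them, and not every library correlated best with its own number. Depth limits the 14 untested chains and those with few counts.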
